A study of Mus musculus with 4 samples.

Results

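The genes described here encode nuclear receptors of the REV-ERB and ROR families, Nr1d1 (REV-ERBα), Nr1d2 (REV-ERBβ), Rora and Rorb, together with Thra, the thyroid hormone receptor gene that lies beside Nr1d1. They were taken by symbol, 5 of the 23282 rows of each count table, and all 5 passed the filter on low counts that left 14801 genes for testing. RNA sequencing covered 4 mammary tumour samples of female FVB mice aged 14 weeks. All carried PyMT, the polyoma virus middle T oncogene, and 2 were labelled Nr1d1+/+ and 2 Nr1d1-/-. The comparison asks which transcripts differ between tumours with and without REV-ERBα. The labels name neither the promoter that drives PyMT nor the exons that the null allele lacks, nor do they state that replicates are different animals. The p-values therefore reflect the spread among these 4 samples alone, and that spread may be technical.

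REV-ERB and ROR proteins compete for the same DNA sequence, the ROR response element, a hexamer AGGTCA or GGGTCA with an AT-rich flank before it. REV-ERBα and REV-ERBβ bind heme and recruit the NCoR-HDAC3 corepressor complex, and so repress genes such as Arntl, which encodes the clock activator BMAL1. ROR proteins recruit coactivators and activate the same genes. In the circadian clock, BMAL1 and CLOCK drive Nr1d1 and Nr1d2 through E-boxes, which closes a feedback loop. Thyroid hormone receptors bind similar hexamers as partners of RXR, with corepressors in the absence of hormone and coactivators in its presence.

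The libraries held 15905404 to 19116279 counts. Luminal epithelial markers were present in every library, and all 9 listed (Krt8, Krt18 and Elf5 among them) were tested, with summed levels of 5506 to 6393 CPM (counts relative to library size, scaled between libraries with TMM factors) in Nr1d1+/+ and 9094 to 9907 CPM in Nr1d1-/-. The markers did not move together: Krt8, Krt18 and Krt19 rose, Kit (log2 fold -2.15) and Cdh1 (-0.73) fell, 4 did not pass, and the median log2 fold was -0.19. Nr1d1-/- replicate 1 stood apart by skeletal muscle transcripts, with a summed level of 899.7 CPM over 13 markers against 3.16 to 6.51 CPM in the other libraries. A large part of the transcriptome differed between the genotype labels. Of the tested genes, 33.9% had an edgeR quasi-likelihood adjusted p under 0.05 (Benjamini-Hochberg over all tested genes), 17.3% lower and 16.5% higher in Nr1d1-/-, and the genotypes did not overlap in CPM for 70.5%. Of the genes called, 48.8% were higher, against 22.5% with library size as the only scaling, which moved the median log2 fold of all genes to -0.38.

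Against that background, 2 of the 5 receptor genes passed: Nr1d2 was lower and Rorb higher in the libraries labelled Nr1d1-/-. The genotypes did not overlap in CPM for 4 of the 5, all but Nr1d1. Both shares rest on 5 genes, so they are given as counts only. Pairs of values are given for replicate 1, then replicate 2, of a genotype. Each log2 fold is Nr1d1-/- over Nr1d1+/+ with its standard error (SE), and the median over all tested genes was -0.0065. In bulk tumour RNA, fewer cells that express a gene and less RNA per cell cannot be told apart.

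**Figure D1:**
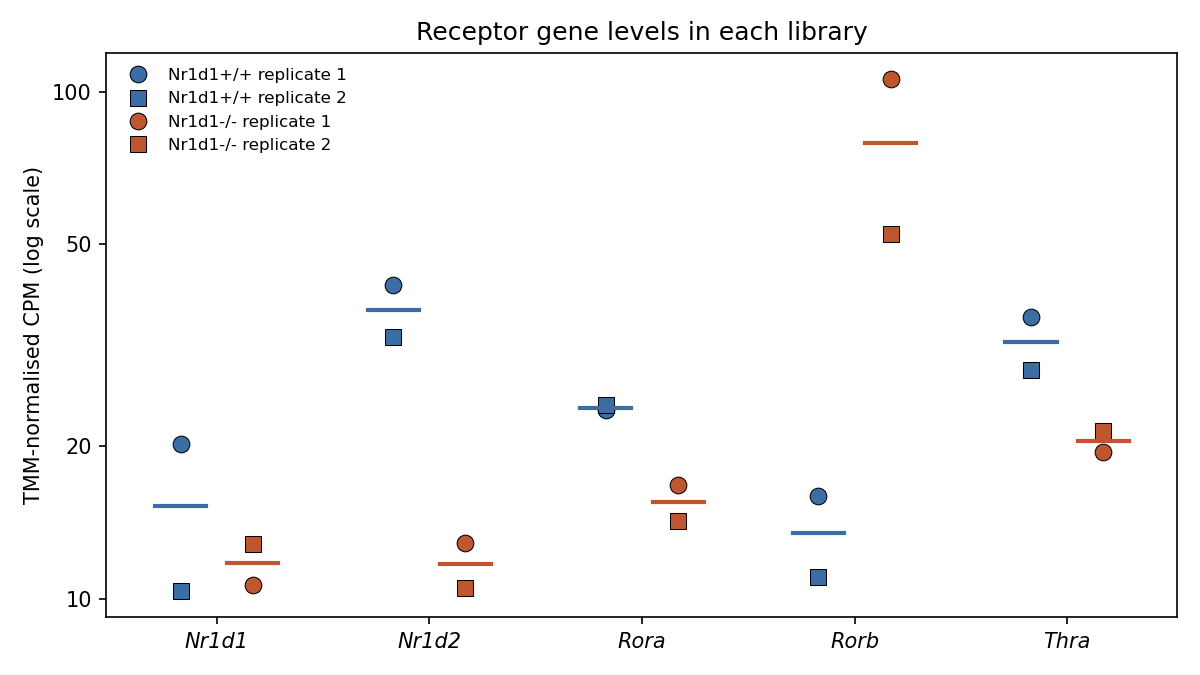
Level of each receptor gene in TMM-normalised CPM (vertical log axis) in the 4 libraries. Blue points are Nr1d1+/+ and orange points Nr1d1-/-, circles are replicate 1, squares replicate 2, and bars are group means. Rorb spans 11.1 to 106 CPM with both Nr1d1-/- libraries on top, Nr1d2 has both Nr1d1-/- libraries at the bottom, and the Nr1d1 points of both genotypes interleave.

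Nr1d1, the gene named in the genotype label, was the only receptor gene whose values interleaved between the genotypes. Its counts were 426 and 216 (Nr1d1+/+) against 145 and 207 (Nr1d1-/-), which is 20.1 and 10.3 CPM against 10.6 and 12.8 CPM. Nr1d1+/+ replicate 1 was the highest, while Nr1d1+/+ replicate 2 lay below both Nr1d1-/- libraries. The log2 fold was -0.37 (SE 0.35, 95% interval -1.17 to 0.42, edgeR adjusted p = 0.436), and without Nr1d1+/+ replicate 1 it was 0.15. Exons of a null allele can still be transcribed, and which ones this allele lacks is not in the labels, so these counts do not check the genotype and every direction below is that of the labels.

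The structure of the locus sets how far these counts can be read. In GENCODE M21 (GRCm38), Nr1d1 (ENSMUSG00000020889.11) lies on the minus strand at chr11:98767932-98775333 with 8 merged exons of 3077 bases. Thra (ENSMUSG00000058756.13) lies on the plus strand at chr11:98740638-98769006, so that the ends of both genes overlap from 98767932 to 98769006. Within that stretch their exons share 263 bases, which is 8.55% of the exonic length of Nr1d1 and 5.7% of that of Thra. Both genes' longest coding transcripts, 2721 bases for Nr1d1 and 2452 for Thra, cover all 263 bases, while the Thra coding transcript of 2246 bases covers 0 of them. The strand setting of the counting was not given in the sources used here. Reads from those bases cannot be assigned to either gene with certainty.

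Thra itself was lower in both Nr1d1-/- libraries without passing the test. Its counts of 761 and 591 (Nr1d1+/+) against 266 and 345 (Nr1d1-/-) gave 36 and 28.3 CPM against 19.5 and 21.4 CPM. The genotypes did not overlap, as for 70.5% of tested genes. The log2 fold was -0.65 (SE 0.23, 95% interval -1.17 to -0.13, edgeR adjusted p = 0.0557), and after removal of each library's trend on GC content and transcript length it was -1.13 (edgeR adjusted p = 0.00873), which passed. The ratio of Thra to Nr1d1 counts was 1.79 and 2.74 in the Nr1d1+/+ libraries and 1.83 and 1.67 in the Nr1d1-/- libraries, so that Nr1d1+/+ replicate 2 was the highest and the other 3 lay close together.

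Nr1d2, the paralog that shares most REV-ERBα functions, fell. It lies on the minus strand at chr14:18204054-18239127 (ENSMUSG00000021775.11, 8 merged exons, 5409 bases) and shares no exonic base with another annotated gene. Its counts were 877 and 687 (Nr1d1+/+) against 176 and 169 (Nr1d1-/-), and its level was 41.5 and 32.9 CPM against 12.9 and 10.5 CPM. Both Nr1d1-/- libraries lay well below both Nr1d1+/+ libraries, while the libraries of one genotype differed by at most 1.26 times. The log2 fold was -1.67 (SE 0.25, 95% interval -2.23 to -1.11, edgeR adjusted p = 0.00289), a level 3.19-fold lower, and only 3.85% of tested genes had a log2 fold as low or lower. Nr1d2 passed in all 16 alternative analyses, with log2 folds from -2.05 to -1.17. The value nearest 0 came with the replicate block and the GC and length trends removed.

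The balance between the REV-ERB paralogs moved with Nr1d2. Each count of Nr1d1 came with 2.06 and 3.18 counts of Nr1d2 in the Nr1d1+/+ libraries, but with 1.21 and 0.816 in the Nr1d1-/- libraries. A single scaling factor per library does not alter this ratio, but trends on GC content and transcript length can. With those trends removed, the log2 folds lay closer together, at -0.66 for Nr1d1 and -1.18 for Nr1d2. As counted, the ratio was 2.57-fold lower on the mean log2 scale in Nr1d1-/-. The groups did not overlap, although 2 libraries against 2 cannot give an exact permutation p below 0.333, and that was the value (two-sided, also after Benjamini-Hochberg adjustment over the 2 ratios tested).

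The windows before the start sites are shown for the gene named in the genotype and for the 2 receptor genes that passed the test. Each holds the 250 bases before a RefSeq start (GRCm38.p6), 5′ to 3′ on the strand of the gene, with motif matches in capitals. The windows are chr11:98775378-98775627 for Nr1d1, chr14:18239107-18239356 for Nr1d2, chr19:19111197-19111446 for the upstream start of Rorb and chr19:19001118-19001367 for its downstream start, all on the minus strand. Thra had no entry in the table used.
Nr1d1: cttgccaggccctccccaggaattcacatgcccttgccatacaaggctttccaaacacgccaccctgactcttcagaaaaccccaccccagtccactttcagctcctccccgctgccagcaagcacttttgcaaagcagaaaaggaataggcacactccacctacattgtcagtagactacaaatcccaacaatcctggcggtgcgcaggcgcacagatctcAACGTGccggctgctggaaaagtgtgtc
Nr1d2: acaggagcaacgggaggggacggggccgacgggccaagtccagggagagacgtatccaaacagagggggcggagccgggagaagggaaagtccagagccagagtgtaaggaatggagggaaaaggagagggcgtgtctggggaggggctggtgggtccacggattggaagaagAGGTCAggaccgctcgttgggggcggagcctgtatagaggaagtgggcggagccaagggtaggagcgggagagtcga
Rorb upstream start: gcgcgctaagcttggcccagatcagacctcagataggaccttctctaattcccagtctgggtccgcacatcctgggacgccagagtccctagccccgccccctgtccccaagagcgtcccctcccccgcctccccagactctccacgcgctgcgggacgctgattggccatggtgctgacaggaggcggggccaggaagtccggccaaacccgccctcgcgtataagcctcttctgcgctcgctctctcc
Rorb downstream start: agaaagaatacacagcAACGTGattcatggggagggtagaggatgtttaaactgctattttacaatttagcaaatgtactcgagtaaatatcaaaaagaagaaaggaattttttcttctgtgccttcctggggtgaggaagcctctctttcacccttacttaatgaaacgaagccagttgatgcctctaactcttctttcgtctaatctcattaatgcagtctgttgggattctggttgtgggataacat
Motifs were searched on both strands: the E-box CACGTG, its variant CACGTT, the D-boxes TTATGTAA and TTACGTAA, the receptor hexamers AGGTCA and GGGTCA, and the hexamers preceded by T (TAGGTCA and TGGGTCA, which contain the former). Nr1d1 had 1 match, CACGTT on the opposite strand (printed as AACGTG), at -28 to -23 counted from the start. Nr1d2 had 1 match, AGGTCA, at -77 to -72, and it was not preceded by T. The GENCODE genes begin elsewhere than these RefSeq starts, at 98775333 for Nr1d1 and 18239127 for Nr1d2. Positions counted from there would differ. The downstream start of Rorb had 1 match, CACGTT on the opposite strand, at -234 to -229, and its upstream start had 0 matches, as had the window of Rora (chr9:68653536-68653785). Among 32851 such windows, 14% held AGGTCA, 3.85% held CACGTT, 6.02% held CACGTG and 5.38% held a hexamer preceded by T. A match is a string of letters and no evidence of binding, and ROR response elements or E-boxes outside these 250 bases were not searched.

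Rorb rose and had the largest change among the 5. RORβ is best known from retina, cortex and bone. The gene lies on the minus strand at chr19:18930605-19111196 (ENSMUSG00000036192.15, 12 merged exons, 11076 bases). Its counts were 337 and 231 (Nr1d1+/+) against 1448 and 843 (Nr1d1-/-), or 15.9 and 11.1 CPM against 106 and 52.3 CPM. Every Nr1d1-/- library was above every Nr1d1+/+ library, but the Nr1d1-/- libraries differed 2.03-fold from each other. The log2 fold was 2.55 (SE 0.35, 95% interval 1.76 to 3.34, edgeR adjusted p = 0.00244), a level 5.86-fold higher, and 1.28% of tested genes had a log2 fold as high or higher. Rorb passed in all 16 alternative analyses, with log2 folds from 1.95 without Nr1d1-/- replicate 1 to 3.05 with GC and length trends removed. Gene counts do not tell transcripts from the upstream and downstream starts apart.

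Markers of other tissues were measured beside Rorb. Without the library with skeletal muscle transcripts, Nr1d1-/- replicate 1, Rorb still passed (edgeR adjusted p = 0.00173). The 9 neuronal markers summed to 9.33 to 11.3 CPM in Nr1d1+/+ and 8.93 to 14.9 CPM in Nr1d1-/-. Of the 3 that were tested, 0 rose and Rbfox3 fell (log2 fold -1.77). Snap25 (log2 fold 0.82) and Stmn2 (1.48) had positive folds and did not pass, and the median log2 fold was 0.82. Syt1 was at 0 in 3 of 4 libraries and Gap43 was at 0 in all but Nr1d1-/- replicate 1. The 7 Schwann cell and glial markers summed to 318 to 377 CPM against 548 to 865 CPM. Of the 6 tested, 4 did not pass and 2 rose, among them the calcium-binding protein gene S100b with 4.49 and 3.64 CPM against 18.7 and 25.9 CPM. Sox10, the defining regulator of glia that mammary epithelium also expresses, did not pass, with 270.2 and 260 CPM against 247 and 251 CPM. The part of glial cells in the Rorb result was not tested.

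Rora, the broadly expressed ROR gene, was lower in both Nr1d1-/- libraries without passing. It spans 734 kb on the plus strand at chr9:68653786-69388246 (ENSMUSG00000032238.17, 18 merged exons, 13071 bases), and 82 of its exonic bases overlap an antisense gene, Gm15511, that the count tables do not list. Its counts were 498 and 503 (Nr1d1+/+) against 229 and 229 (Nr1d1-/-), or 23.5 and 24.1 CPM against 16.8 and 14.2 CPM. The genotypes did not overlap, and the libraries of one genotype differed by at most 1.18 times. The log2 fold was -0.62 (SE 0.23, 95% interval -1.16 to -0.09, edgeR adjusted p = 0.0704). It was -0.12 (edgeR adjusted p = 0.738) with GC and length trends removed, and -1.004 (edgeR adjusted p = 0.0105) with library size as the only scaling. RORα is also a regulator of innate lymphoid and T cells, whose markers summed to 52.1 to 60.2 CPM in Nr1d1+/+ and 105 to 128 CPM in Nr1d1-/-. Gata3, which luminal epithelium also expresses, made up 42.5 and 33.8 CPM of these sums in Nr1d1+/+ and 78.9 and 65 CPM in Nr1d1-/-. Of the 8 tested, Cd3d, Il7r, Gata3 and Il2ra rose and 4 did not pass, of which Cd3e (log2 fold -0.15), Cd3g (-0.73) and Cd8a (-3.33) had negative folds. The part of lymphoid cells in the Rora values was not tested.

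**Figure D2:**
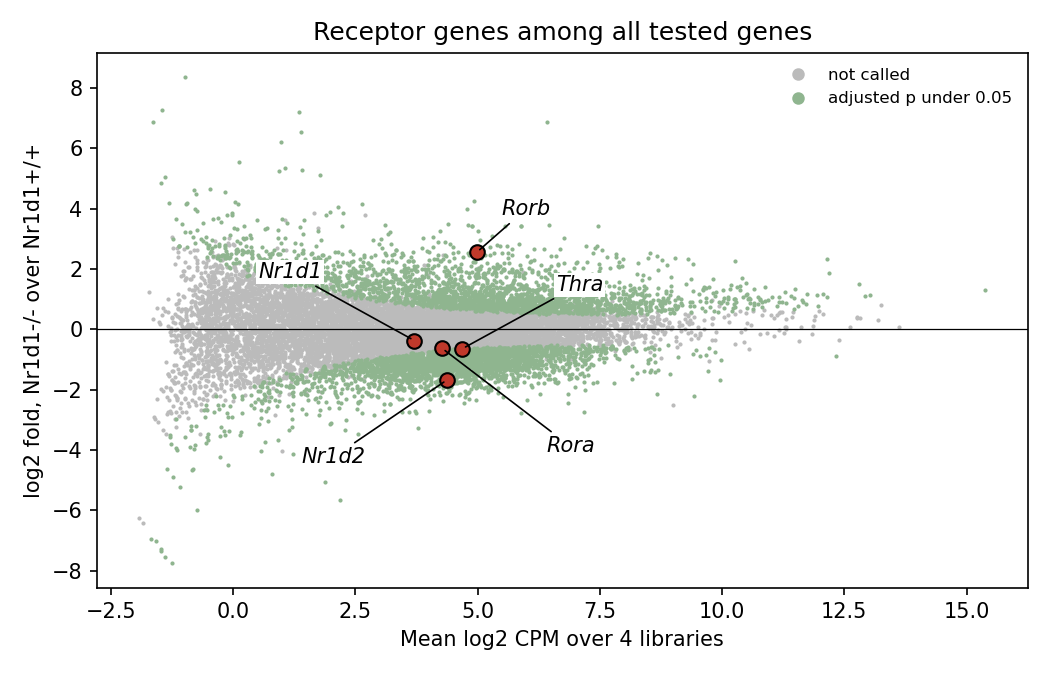
log2 fold (vertical) against mean log2 CPM (horizontal) for the 14801 tested genes, green where the adjusted p was under 0.05. The red points are the receptor genes: Rorb lies at 2.55 near the upper edge, Nr1d2 at -1.67 near the lower edge of the cloud, and Nr1d1, Rora and Thra lie between -0.65 and -0.37 in the grey band.

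Among all tested genes, the mean CPM of Nr1d2 went from percentile 70.9 in Nr1d1+/+ to 45.3 in Nr1d1-/- and that of Rorb from 46.2 to 85.7. Levels were compared between the receptor genes per kilobase (kb) of merged exons. In Nr1d1+/+ the order was Thra with 6.96 ± 1.18 (SD, n = 2), Nr1d2 with 6.87 ± 1.12, Nr1d1 with 4.95 ± 2.25, Rora with 1.82 ± 0.0283 and Rorb with 1.22 ± 0.312 CPM per kb. Thra, Nr1d2 and Nr1d1 did not differ beyond their spread, and Rora and then Rorb lay below them by more than it. In Nr1d1-/- the order was Rorb with 7.15 ± 3.43, Thra with 4.43 ± 0.292, Nr1d1 with 3.81 ± 0.509, Nr1d2 with 2.16 ± 0.316 and Rora with 1.18 ± 0.139 CPM per kb. Rorb thus went from the last place to the first, although Rorb and Thra did not differ beyond the spread of Rorb. The Thra and Nr1d1 values lay close but did not overlap, at 4.22 and 4.64 against 3.45 and 4.17 CPM per kb. With the longest coding transcript as the length, a choice made after the data were seen, the order was the same in both genotypes. The level of Thra then came to 13.1 in Nr1d1+/+ and 8.34 CPM per kb in Nr1d1-/-. Rorb had 8.52 CPM per kb in Nr1d1-/-, close to Thra, and the values of Rorb and Thra overlapped there.

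Within the REV-ERB and ROR transcripts, Rorb replaced Nr1d2 as the largest share. Per kb, Rorb made up 8.24% and 8.13% of the summed counts of Nr1d1, Nr1d2, Rora and Rorb in the Nr1d1+/+ libraries, against 57.4% and 39.6% in the Nr1d1-/- libraries. Nr1d2 made up 43.9% and 49.5% against 14.3% and 16.3%. The share of Nr1d1 was 37.5% and 27.4% against 20.7% and 35%, and that of Rora was 10.3% and 15% against 7.69% and 9.12%. The activator to repressor ratio, Rora plus Rorb over Nr1d1 plus Nr1d2, was 0.228 and 0.301 in Nr1d1+/+ and 1.86 and 0.95 in Nr1d1-/-, 5.08-fold higher on the mean log2 scale. The groups did not overlap, with the smallest possible exact permutation p of 0.333 (two-sided, 0.333 after adjustment over the 2 ratios). As counted, the pair of Rora and Nr1d1 alone went the other way, with a log2 change of -0.32 in their ratio. The genotypes overlapped in that ratio. With GC and length trends removed, Rora (log2 fold -0.12) fell less than Nr1d1 (-0.66).

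**Figure D3:**
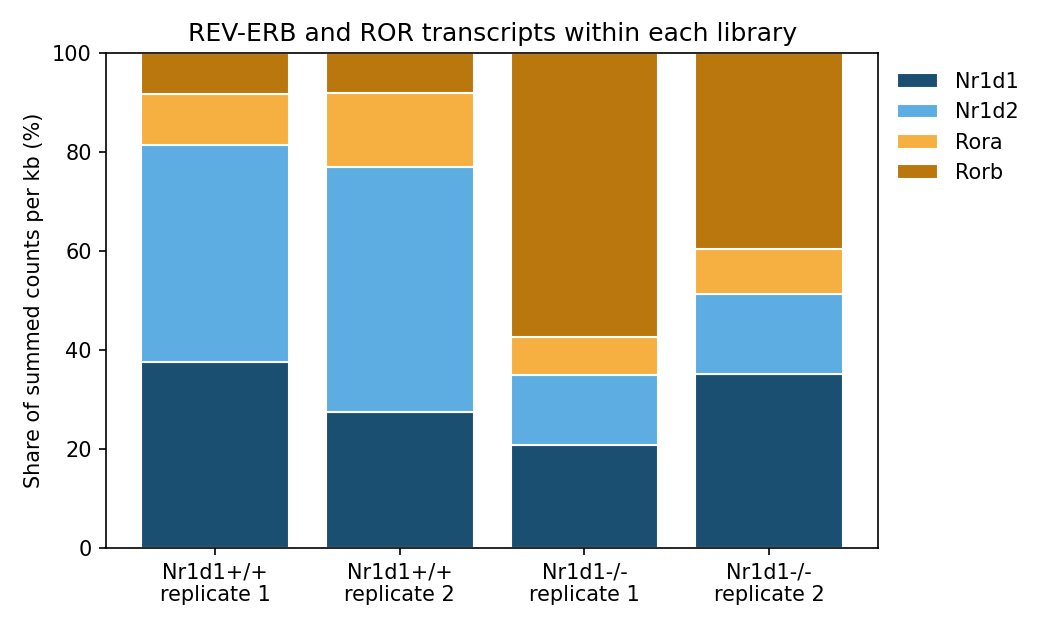
Share (%) of each gene in the summed counts per kb of Nr1d1, Nr1d2, Rora and Rorb, 1 bar per library. Nr1d2 is the largest part of both Nr1d1+/+ bars, and the Rorb part grows from 8.13% and 8.24% to 39.6% and 57.4% in the Nr1d1-/- bars.

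The partner, regulator and target genes were grouped in lists, and each count is to be read against the 16.5% of all tested genes that rose and the 17.3% that fell. The classical clock genes with ROR response elements did not pass. Arntl, Npas2, Clock, Cry1 and Nfil3 were all tested, and 0 of 5 rose or fell (0 of 5 at an unadjusted p under 0.05), with a median log2 fold of -0.06. The level of Arntl was 3.21 and 5.6 CPM (Nr1d1+/+) against 7.4 and 5.64 CPM (Nr1d1-/-). Both Nr1d1-/- values were above both Nr1d1+/+ values, by a narrow margin (log2 fold 0.56, SE 0.40, edgeR adjusted p = 0.307). The log2 folds of the others were -0.06 for Npas2, a paralog of Clock (SE 0.49), -0.22 for Clock (SE 0.25), 0.02 for the repressor Cry1 (SE 0.39) and -0.15 for Nfil3, a repressor at D-boxes (SE 0.60), and the genotypes overlapped for all 4. Clock transcripts follow the hour of day, which the labels do not give for these tumours.

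Other genes that REV-ERB or ROR proteins are known to control went both ways. Of 19 listed, 10 were tested, 2 rose, 3 fell and 5 did not pass, with a median log2 fold of -0.60. Among all tested genes 33.9% were called, so a list of 10 gives little to read from 5 calls. Apoa5, Elovl3, G6pc and Fgf21, which are liver or fat genes, were at 0 in all libraries. Lpl, lipoprotein lipase, rose from 185 ± 76.8 to 996 ± 434 CPM (SD, n = 2), log2 fold 2.43. The chemokine receptor gene Cx3cr1 rose from 8.17 ± 1.68 to 23.8 ± 3.47 CPM, log2 fold 1.54. Ulk1, an autophagy kinase gene, fell from 36.8 ± 5.46 to 17.8 ± 6.16 CPM, log2 fold -1.04, and Plin2, a lipid droplet coat gene, fell with a log2 fold of -0.55. Without Nr1d1+/+ replicate 2, 0 of the list were called lower; without Nr1d1-/- replicate 1 or 2, 2 were, and without Nr1d1-/- replicate 2, 3 were called higher. Adipocytes express Lpl, and their 10 markers summed to 43.2 to 76.9 CPM in Nr1d1+/+ and 130.2 to 195 CPM in Nr1d1-/-. Of the 8 tested, Adipoq, Retn, Cfd and Fabp4 rose and 4 did not pass, while Lep was at 0 in both Nr1d1-/- libraries. Macrophages express Cx3cr1, and their 7 markers summed to 96.3 to 126 against 202 to 294 CPM. Of these, C1qa (28.9 ± 1.12 to 111 ± 28.7 CPM) and C1qb (26.1 ± 6.58 to 69.3 ± 26.6 CPM) rose, the other 5 (Cd68, Adgre1, Csf1r, Mrc1 and Cd163) did not pass, and the median log2 fold was 0.23. The part of both cell types in the results for Lpl and Cx3cr1 was not tested.

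The corepressor complex that REV-ERB proteins recruit had members in both directions. Ncor1 alone rose among the 6 tested, 2 fell and the other 3 did not pass, with a median log2 fold of -0.04 (all tested genes: 16.5% rose, 17.3% fell). Ncor1, the scaffold that binds the receptors, had 222 ± 36.3 CPM against 508 ± 179 CPM and rose (log2 fold 1.19, SE 0.26, edgeR adjusted p = 0.00946). Tbl1x and Tbl1xr1, the beta-propeller subunits that exchange cofactors, fell from 20.6 ± 7.67 to 6.11 ± 1.62 CPM (log2 fold -1.76) and from 45.6 ± 1.6 to 19.4 ± 2.14 CPM (log2 fold -1.24). The deacetylase gene Hdac3 had 112 ± 2.73 against 121 ± 6.33 CPM and did not pass (log2 fold 0.10, SE 0.17, edgeR adjusted p = 0.663). Ncor1 had a log2 fold of 0.78 without Nr1d1-/- replicate 1, and it passed there too.

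The list of ROR and thyroid receptor coactivators had changes in both directions. Of 10 tested, 5 fell, 1 rose and 4 did not pass, with a median log2 fold of -0.81, where 17.3% of all tested genes fell and 16.5% rose. The falls include Nrip1 (log2 fold -2.10), which encodes a nuclear receptor corepressor, so they are not all of coactivators. Ep300, a histone acetyltransferase gene, had 56.2 ± 8.92 CPM against 15.8 ± 0.2 CPM and fell (log2 fold -1.83, SE 0.22, edgeR adjusted p = 0.00207). The p160 coactivator gene Ncoa2 fell from 25.7 ± 2.77 to 6.41 ± 0.149 CPM (log2 fold -2.005), and Ncoa6 from 46.1 ± 5.37 to 19.7 ± 1.23 CPM (log2 fold -1.22). Ppargc1a, the inducible coactivator PGC-1α of mitochondrial genes, had 12.8 ± 0.9 CPM against 34.2 ± 8.82 CPM and rose (log2 fold 1.41, SE 0.26, edgeR adjusted p = 0.00519).

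Genes for the turnover of REV-ERB proteins were also split. Of 7 tested, 2 rose and 2 fell, beside 16.5% and 17.3% of all tested genes, with a median log2 fold of 0.21. The ubiquitin ligase gene Huwe1 fell from 183 ± 19.6 to 72.1 ± 10 CPM (log2 fold -1.34) and Gsk3b, whose kinase stabilises REV-ERBα, fell from 50.5 ± 3.82 to 27.6 ± 0.556 CPM (log2 fold -0.87). The ligase genes Mycbp2 and Fbxw7 rose from 46.7 ± 1.5 to 86.3 ± 16.9 CPM (log2 fold 0.89) and from 45.7 ± 0.79 to 71.3 ± 3.12 CPM (log2 fold 0.64). With library size as the only scaling, 0 of the list were called higher, and with GC and length trends removed Gsk3b did not pass (log2 fold -0.43). Without Nr1d1+/+ replicate 1 or 2 or Nr1d1-/- replicate 1, only 1 member was called higher, and without Nr1d1+/+ replicate 2 only 1 was called lower.

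**Figure D4:**
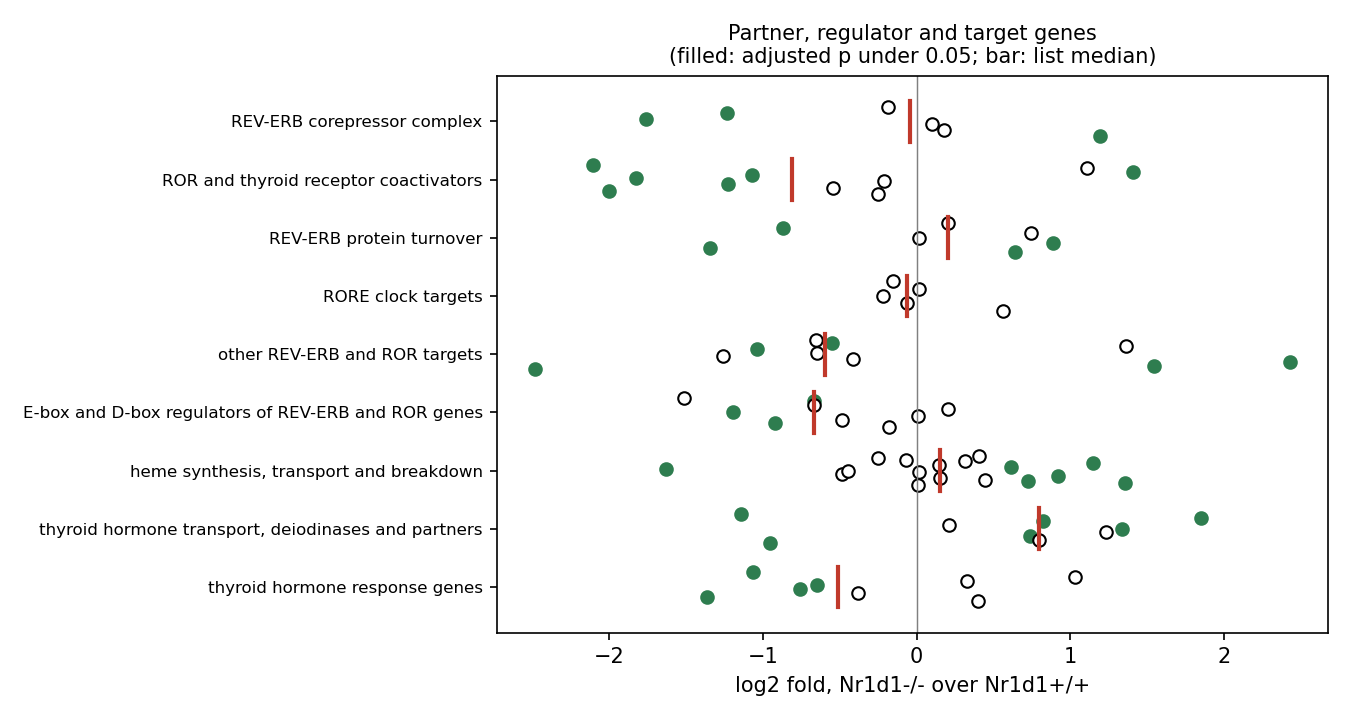
log2 fold (horizontal) of the tested members of each list of partners, regulators and targets, filled green where the adjusted p was under 0.05, with the list median as a red bar. The coactivator list, which includes the corepressor gene Nrip1, has 5 filled points left of 0 and 1 right of it. The clock targets have none, and most lists hold filled points on both sides.

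Clock factors that act on REV-ERB and ROR genes through E-boxes and D-boxes had 3 falls and 0 rises among 9 tested, and a median log2 fold of -0.67. These 3 calls among 9 are close to the 33.9% called over all tested genes. Bhlhe40, an E-box repressor, had 61.8 ± 3.99 CPM against 27 ± 5.13 CPM and fell (log2 fold -1.19, SE 0.21, edgeR adjusted p = 0.00489). Per2 fell from 17.7 ± 1.23 to 9.33 ± 0.66 CPM (log2 fold -0.92) and Hlf, a D-box activator, from 45.3 ± 5.47 to 28.5 ± 2.11 CPM (log2 fold -0.67). Only 1 member was called lower without Nr1d1+/+ replicate 1, without Nr1d1+/+ replicate 2 and with GC and length trends removed, and 2 were without Nr1d1-/- replicate 1.

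Heme is the ligand of REV-ERB proteins, and genes of its synthesis, transport and breakdown had 5 rises and 1 fall among 17 tested, with a median log2 fold of 0.15. These 6 calls among 17 are a share near the 33.9% called over all tested genes, so the count is no result about heme genes as a group. The inducible heme oxygenase gene Hmox1 had 36.2 ± 13.5 CPM against 11.7 ± 1.8 CPM and fell (log2 fold -1.63, SE 0.31, edgeR adjusted p = 0.00572). Blvrb, a biliverdin reductase gene, rose from 20.7 ± 4.87 to 45.9 ± 3.45 CPM (log2 fold 1.15). Urod and Alad, enzymes of the synthesis pathway, rose with log2 folds of 0.92 and 0.73. No member was called higher (0 of 17) without Nr1d1+/+ replicate 2, 2 were without Nr1d1+/+ replicate 1 and with library size only, and 1 was with GC and length trends removed. Red blood cell markers, which include the heme synthesis gene Alas2, summed to 475 to 609.6 CPM in Nr1d1+/+ and 2106 to 2295 CPM in Nr1d1-/-, and all 7 tested rose; near-identical globin genes can share reads, and the part of blood in the heme list was not tested.

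On the thyroid hormone side, the genes for transporters, deiodinases and partners of Thra had 4 rises and 2 falls among 9 tested, with a median log2 fold of 0.80, against 16.5% of all tested genes that rose and 17.3% that fell. Thrb, the other thyroid hormone receptor gene, had 30.8 ± 2.36 CPM against 77.8 ± 19.6 CPM and rose (log2 fold 1.33, SE 0.23, edgeR adjusted p = 0.00408), while the log2 fold of Thra was negative. The partner receptor gene Rxrg rose from 3.21 ± 1.02 to 11.6 ± 2.41 CPM (log2 fold 1.85). Thrap3, a transcription and splicing cofactor gene, fell from 199 ± 28.4 to 90.3 ± 13.2 CPM (log2 fold -1.14). Dio1 and Crym were at 0 in all libraries. The number of rises was 2 without Nr1d1+/+ replicate 1 and with library size only.

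Genes known to respond to thyroid hormone had 4 falls and 0 rises among 8 tested, with a median log2 fold of -0.51. Over all tested genes 17.3% fell, and the number of falls in this list depended on single libraries. The transcription factor gene Klf9 had 17.2 ± 4.35 CPM against 6.71 ± 1.07 CPM and fell (log2 fold -1.36, SE 0.31, edgeR adjusted p = 0.0122). The malic enzyme gene Me1 fell from 241 ± 22.5 to 143 ± 26.8 CPM (log2 fold -0.76), the calcium pump gene Atp2a2 from 216 ± 27.3 to 137 ± 5.08 CPM (log2 fold -0.65) and Bcl3 from 81 ± 26.2 to 38.7 ± 10.7 CPM (log2 fold -1.07). Thrsp, a classical hormone-induced gene of lipid synthesis, did not pass (log2 fold 0.40, SE 0.35, edgeR adjusted p = 0.397). Only 1 member was called lower without Nr1d1+/+ replicate 2, and 2 were without Nr1d1-/- replicate 1 and with GC and length trends removed; 2 were called higher without Nr1d1-/- replicate 2.

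The genes closest to each receptor gene in profile were found by the root mean square distance between their 4 log2 CPM values, each gene centred on its own mean, among 10830 genes whose mean was 5 CPM or more. With 4 libraries many genes lie close, so these are descriptions of the libraries. For Nr1d2 the closest were Ttc3, Ube2g1 and Kat7, at 0.029, 0.035 and 0.051 log2 units. For Rorb they were Rapgef4, Nrp1 and Scn2b, at 0.068, 0.075 and 0.077, and only 54 genes lay within 0.25 log2 units of Rorb. The semaphorin and VEGF co-receptor gene Nrp1 had 35 and 22.6 CPM (Nr1d1+/+) against 214 and 98.8 CPM (Nr1d1-/-), the same order of libraries as Rorb. For Rora, Pcbp2, Mtx3 and Mal2 lay at 0.017 to 0.023, and 2317 genes lay within 0.25 log2 units. For Thra, Rnf103, Gm20219 and Dcaf5 lay at 0.025 to 0.033, with 1822 genes within 0.25. For Nr1d1, Map2k6 and B3gntl1 were among the closest, at 0.081 and 0.086, both with Nr1d1+/+ replicate 1 highest. Among the receptor genes themselves, Rora and Thra were the closest pair (0.19 log2 units) and Nr1d2 and Rorb the most distant (2.08).

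**Figure D5:**
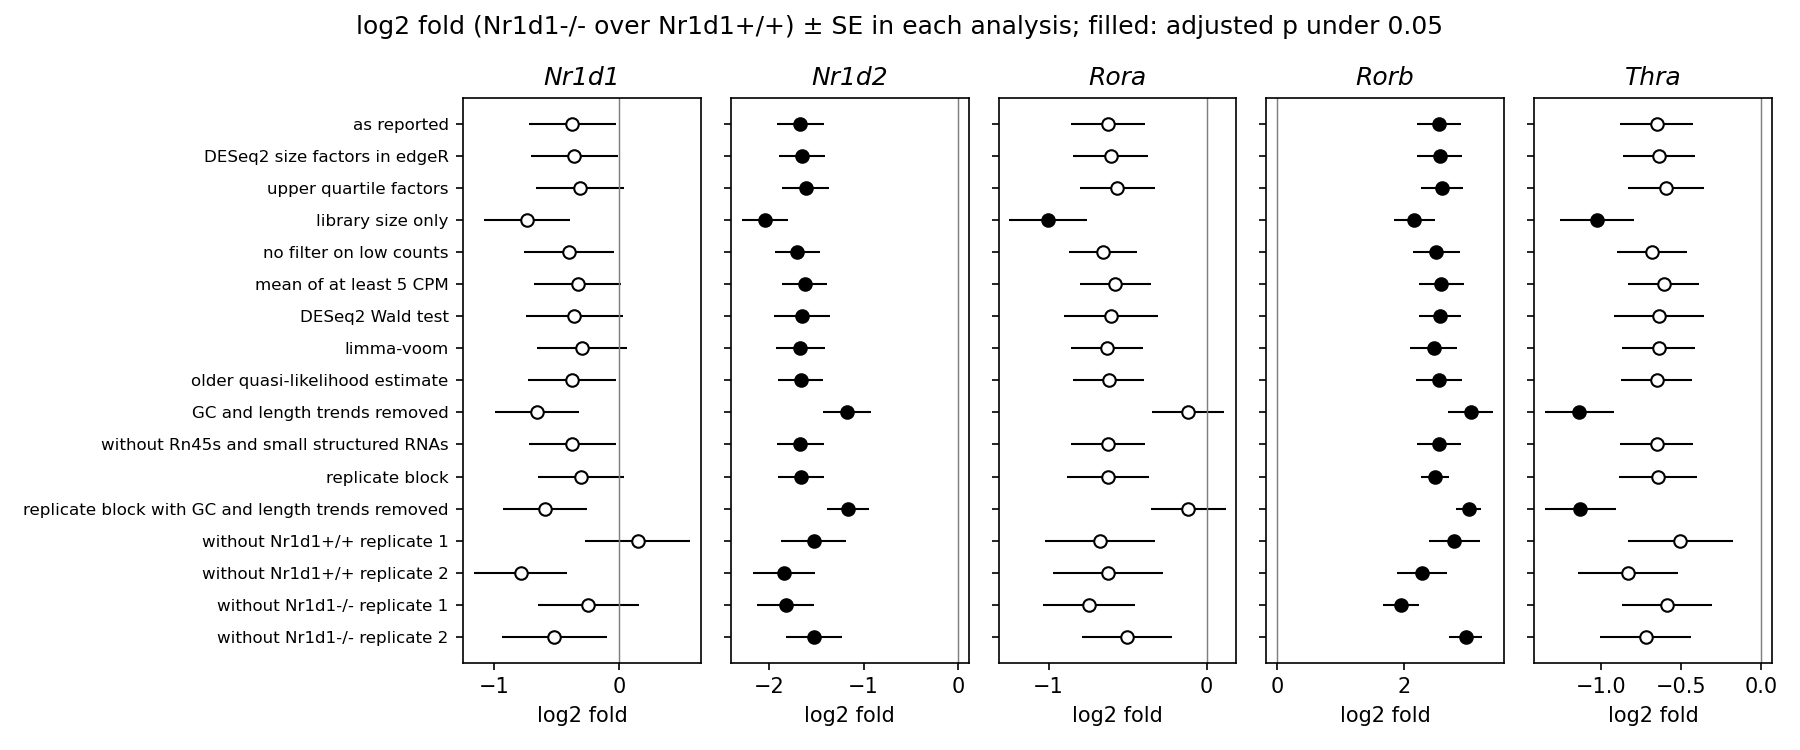
log2 fold (horizontal, ± SE) of each receptor gene in the reported analysis (top) and 16 alternatives, filled where the adjusted p was under 0.05. Nr1d2 and Rorb are filled throughout, Nr1d1 never, Rora with library size only, and Thra with library size only and with GC and length trends removed, with or without the replicate block.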

How the data were processed

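RNA was extracted with Trizol, and 1.3 ug of total RNA per sample went into Clontech SMARTer Stranded libraries, per the labels' protocols. TopHat aligned the reads to mm10, per the submitters' processing notes. The authors deposited raw, whole-number counts for each gene symbol. Counting program, annotation and strand setting: not given in the sources used here.

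Everything after that was computed for this report. Genes passed filterByExpr of edgeR 4.0.16 (minimum count 10), and TMM factors and the quasi-likelihood F test (legacy=FALSE, R 4.3.3, 2 residual degrees of freedom, genotype as the only term) were used over all 14801 tested genes, with calls at a Benjamini-Hochberg adjusted p under 0.05. One count was 0.0473 to 0.0733 CPM. Counts of the receptor genes carried exact Poisson 95% counting intervals of 5.19 to 16.6% on either side, which cover counting error only. Replicates of each genotype differed by more than counting noise. In simulated data for 14801 genes with 200 changed, edgeR found 19% of the 2-fold changes and 91% of the 4-fold changes. It called 0.0342% of genes left as they were. The simulation used a single dispersion and few changed genes, whereas 33.9% of tested genes were called in the data. These rates therefore may not hold for the reported test.

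Positions and lengths came from GENCODE M21, in which 22205 of 23238 symbols matched directly and 659 through a synonym, and start-site windows from RefSeq. Trends on GC content and transcript length were fitted per library with natural splines (5 degrees of freedom) and passed to edgeR as offsets. Alternatives also used DESeq2 1.42.0, limma 3.58.1 (voom), other scalings and filters, and left out each library. The replicate number was not used for pairing in the reported test, since the labels do not say what it shares. The genes named were the 5 receptor genes, all 5 clock targets with ROR response elements, up to 4 called members of each other list with the lowest p, and the 3 genes closest in profile to each receptor gene. Hdac3, Nrip1, Plin2, Thrsp, Alas2 and the marker genes named are outside that rule and were chosen after their values were seen. The members and lists were chosen with earlier results of these data known. One further receptor gene and some genes that the rule names are not reported here.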

Additional observations from a re-analysis of the deposited data

How the results depend on the processing

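Nr1d2 and Rorb kept their direction and their call in all 16 alternatives. Nr1d1, Rora and Thra had the same direction in all of them but one: the log2 fold of Nr1d1 ranged from -0.79 to 0.15 when single libraries were left out. With library size as the only scaling, Rora (-1.004) and Thra (-1.03) passed, the median of all genes moved to -0.38, and 1281 genes were called higher and 4415 lower, 22.5% of calls higher in place of 48.8% of 2446 and 2567. At an adjusted p under 0.1, Rora (-0.62) and Thra (-0.65) passed as well. With GC and length trends removed, Thra passed (-1.13, also -1.13 with the replicate block) and 1629 genes were called lower. Leaving out single libraries gave 1211 to 2464 genes higher and 1279 to 2549 lower, with the lowest numbers without Nr1d1+/+ replicate 2; the remaining sample of that genotype is then assumed to vary like the other genotype. With the replicate number as a block, 2621 genes were higher and 2704 lower, and no call of a receptor gene changed. The replicate differences of the genotypes were nearly uncorrelated across genes (correlation 0.026). With 1 difference per genotype, that value cannot show whether samples of the same replicate number share a batch. The log2 change of the ROR to REV-ERB ratio (2.34) was -0.32 for Rora over Nr1d1, 1.04 for Rora over Nr1d2 and 4.16 for Rorb over Nr1d2, and it ran from 1.86 to 2.83 when single libraries were left out. With GC and length trends removed, Rora (-0.12) fell less than Nr1d1 (-0.66), and Nr1d2 had -1.18. Of the other named genes, signs turned for genes that did not pass in the reported analysis. Leaving out single libraries gave Npas2 -0.52 to 0.52, Cry1 -0.63 to 0.45, Nfil3 -0.84 to 0.76, Map2k6 -0.94 to 0.19 and B3gntl1 -0.87 to 0.028. Npas2 was also 0.028 with limma-voom, 0.056 with trends removed and 0.089 with the block added; Clock was 0.32 with trends removed, with and without the block; Cry1 was -0.36 with library size only, -0.0078 without a filter, -0.035 with limma-voom, -0.054 with the block and -0.064 with block and trends removed. The causes were not tested. With 2 libraries per genotype, the precision is limited: the 95% interval of Nr1d1 runs from -1.17 to 0.42 on the log2 scale.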
